A study of Sus scrofa with 22 samples.

Results

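The genes described here serve the barrier defence of the intestinal epithelium: DUOX2, DUOXA2, PIGR, NOS2, LCN2, CCL20, CXCL14, IL18 and REG3G. They were chosen by name, as the rows of each library's count table that carry one of these 9 symbols. Of the 9, 7 had a row of that name among 24358 genes in all, and 6 of those 7 passed a filter on low counts that left 13626 genes for testing. LCN2 and REG3G had no row of that name and were skipped by the rule, and DUOXA2 had a row but was too low to test.

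The epithelium of the small intestine faces microbes across a single cell layer and answers them with several kinds of product, known mostly from human and mouse work. DUOX2, an oxidase of the apical membrane, makes hydrogen peroxide and needs the maturation factor DUOXA2 to leave the endoplasmic reticulum, while NOS2, the inducible nitric oxide synthase, makes nitric oxide from arginine. PIGR, the polymeric immunoglobulin receptor, carries IgA and IgM through the epithelial cell into the lumen. LCN2 withholds iron from bacteria, REG3G is an antibacterial lectin, CCL20 attracts cells that carry the receptor CCR6, CXCL14 is a chemokine with antibacterial activity, and IL18 is a cytokine of the IL-1 family that is released after cleavage by CASP1.

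RNA was sequenced from the jejunal mucosa of 22 pigs of the Ossabaw breed, which readily develops obesity and metabolic disease on rich diets, with 1 library per pig. The ARST group (n = 7) ate an atherogenic Western dietary pattern, with much butter fat, refined carbohydrate and cholesterol, and took atorvastatin, an inhibitor of cholesterol synthesis. The HHDST group (n = 8) ate a heart healthy pattern, rich in unsaturated oils, whole grain, fruit, vegetables and fibre, with atorvastatin, and the HHD group (n = 7) ate the heart healthy pattern without the drug. Feeding lasted 6 months on 38% of energy as fat in every group, the atorvastatin dose was 20 mg per day in the first 3 months and 40 mg per day in the last 3 months, and both heart healthy groups also received 1000 mg fish oil capsules 3 times per week, so the dietary comparison includes fish oil. No group on the Western pattern without the drug was analysed here. The series text gives the abbreviation ARST to the Western pattern without drug. The diet label of each sample names the statin, and that label was followed. The study randomized 16 boars and 16 gilts. The sex and age of each pig are not given in the labels, so sex could not be entered in any fit.

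Library totals were 15.3 to 31.6 M unique exon reads. The names of the deposited files place 13 libraries in a library set numbered 3 (3 ARST, 5 HHDST, 5 HHD) and 9 in a set numbered 4 (4 ARST, 3 HHDST, 2 HHD), and the set was a term in the fit. Nothing says what a set stands for beyond that name. The tissue label was checked against markers. The enterocyte genes FABP2 (3380 to 13100 CPM, reads scaled to library size) and VIL1 (981 to 1900 CPM) and the epithelial gene EPCAM (816 to 1400 CPM) were present in every library. The enterocyte gene APOA4 ranged widely, from 60.2 to 2860 CPM. The goblet cell mucin MUC2 spanned 142 to 747 CPM, and the neutrophil genes S100A8 and S100A9 had at most 5 and 6 reads. These markers show epithelium and do not by themselves place it in the jejunum. CPM here are scaled by the trimmed mean of M values (TMM). They are not divided by transcript length, so levels are compared between pigs and never between genes. In bulk tissue, fewer cells of a type and less RNA per cell cannot be told apart.

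Whether diet or drug moved these genes was asked in 3 comparisons, ARST against HHDST (diet, all pigs on the drug), HHDST against HHD (drug, all pigs on the heart healthy pattern) and ARST against HHD (both together, and the sum of the other comparisons, since it uses their libraries). No defence gene passed an adjusted p of 0.05 in any of them. In ARST against HHDST, edgeR's quasi-likelihood test called 0 of 6, beside 0% of all 13626 genes, and 0 of 6 had an unadjusted p under 0.05, beside 2.92% of all genes. In HHDST against HHD it called 0 of 6, beside 0% of all genes, and 1 of 6 had an unadjusted p under 0.05, beside 1.81% of all genes. In ARST against HHD it called 0 of 6, beside 0.00734% of all genes, and 1 of 6 had an unadjusted p under 0.05, beside 3.41% of all genes. The gene called there was ABCG1, a sterol exporter, and 0 were called without ARST 7, HHDST 7 and HHD 7. DESeq2 and limma also called 0 of 6 in each comparison.

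The gene with the small unadjusted p was DUOX2 in both comparisons with HHD. The median log2 fold change of the 6 defence genes was 0.21 in ARST against HHDST (median of all genes -0.01), -0.33 in HHDST against HHD (all genes 0.01) and -0.03 in ARST against HHD (all genes -0.004). Between HHDST and HHD 2 of the 6 estimates were above 0 and 4 below. For each of the 6 genes the libraries of the groups compared overlapped in every comparison. The share of all genes that overlap in this way was not counted, so this does not set these genes apart.

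**Figure D1:**
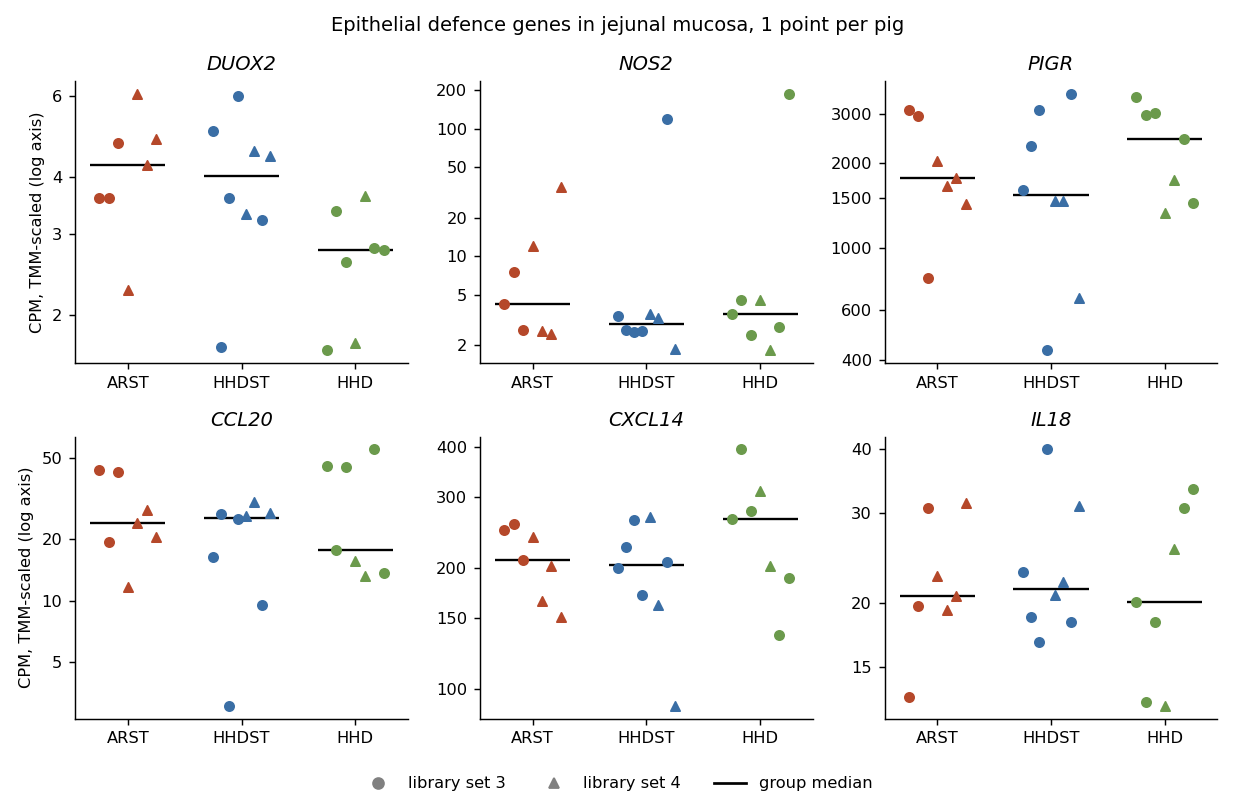
Level of each tested defence gene in each of the 22 pigs, as TMM-scaled CPM on a log axis, by group (ARST, HHDST, HHD), with circles for library set 3, triangles for set 4 and a line at the group median. DUOX2 sits lower in HHD with overlap, and 1 pig of each group stands far above the others in NOS2.

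DUOX2 (ENSSSCG00000004678) lies on chromosome 1, bases 126620468 to 126641406 of Sscrofa11.1 (RefSeq gene span). Its level was 2.26, 4.24 and 6.06 CPM in ARST (lowest, median and highest), 1.70, 4.01 and 5.98 CPM in HHDST, and 1.68, 2.77 and 3.62 CPM in HHD. In ARST 4 pigs and in HHDST 4 pigs exceeded the highest HHD pig, while 1 HHDST pig lay next to the lowest HHD pig. The counts behind these levels were small, 32 to 124 reads per library.

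As mean ± SD, DUOX2 was at 4.19 ± 1.199 CPM in the 7 ARST pigs, 3.98 ± 1.31 CPM in the 8 HHDST pigs and 2.66 ± 0.74 CPM in the 7 HHD pigs, and values after ± are SDs below. Between ARST and HHDST the difference on the log2 scale was 0.06 with an SE of 0.24 (adjusted p = 0.9995 by edgeR). Between HHDST and HHD it was 0.57 (SE 0.24, 95% interval 0.08 to 1.07), with an unadjusted p of 0.0255 and an adjusted p of 0.9993 by edgeR. Between ARST and HHD it was 0.63 (SE 0.25, 95% interval 0.11 to 1.15), with an unadjusted p of 0.0207 and an adjusted p of 0.9997 by edgeR. Both comparisons share the HHD libraries. The difference therefore did not pass the correction for all genes tested, in either comparison. Within library set 3 the log2 fold change was 0.55 for HHDST against HHD and 0.59 for ARST against HHD, and within set 4 the values were 0.61 for HHDST against HHD and 0.69 for ARST against HHD, with edgeR unadjusted p values between 0.0831 and 0.181 in these smaller fits.

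DUOXA2 (ENSSSCG00000004676), the partner that DUOX2 needs, ends 108 bases before the span of DUOX2, at bases 126616631 to 126620359 of chromosome 1. It had 15 reads in all: 2 reads over the ARST libraries, 5 over HHDST and 8 over HHD. It was at 0 in 10 libraries and reached 3 reads in the highest, so no library exceeded the level that a count of 0 allows (3 reads, up to 0.199 CPM; counting error only). A difference between groups was not detectable at this depth. Without the filter on low counts, edgeR's unadjusted p for DUOXA2 was 0.48 in ARST against HHDST, 0.472 in HHDST against HHD and 0.167 in ARST against HHD.

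The neighbouring gene pair of the oxidase locus was read alongside. DUOX1, the second dual oxidase, spans bases 126572533 to 126603084 and averaged 1.28 ± 0.34 CPM in ARST, 1.60 ± 1.01 CPM in HHDST and 1.205 ± 0.36 CPM in HHD. Its highest libraries were HHDST 8 (3.59 CPM) and HHDST 5 (2.63 CPM), both in library set 4. The log2 fold change of set 4 against set 3 was 0.63 (SE 0.23, edgeR unadjusted p 0.0127, adjusted p 0.9159). DUOXA1, the maturation factor of DUOX1, spans bases 126605142 to 126615736 and had 3 reads in all, with 19 libraries at 0. The RefSeq spans of these 4 genes do not overlap. The library kit does not mark strand, so reads could not be told apart by strand at this locus.

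Of the other oxidase genes, 11 of 17 listed genes were tested, DUOX2 among them, and edgeR called 0 in any comparison, with 1 gene at an unadjusted p under 0.05 in each. In both comparisons with HHD that gene was DUOX2. The share of all genes was 2.92% in ARST against HHDST, 1.81% in HHDST against HHD and 3.41% in ARST against HHD. CYBA, the small membrane subunit shared by several oxidases, was at 31.0 ± 6.79 CPM in ARST and 26.5 ± 4.27 CPM in HHDST (edgeR unadjusted p 0.0548). The macrophage and dendritic marker list had a summed level of 809 to 1490 CPM in ARST and 668 to 1190 CPM in HHDST. Of its 13 tested genes 13 had a log2 fold change above 0 (median 0.25, all genes -0.01). An unadjusted p under 0.05 by edgeR was seen for 2 of them, beside 2.92% of all genes. The share of all genes above 0 was not counted, and the part of this list in the CYBA values was not tested. Between HHDST and HHD the smallest p values beside that of DUOX2 were those of NOX4 (4.58 ± 2.13 CPM in HHDST and 5.79 ± 1.68 CPM in HHD, edgeR unadjusted p 0.19) and DUOX1 (edgeR unadjusted p 0.31). NOX1, an oxidase of the large bowel epithelium, had at most 5 reads.

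NOS2 (ENSSSCG00000017755; chromosome 12, bases 44174944 to 44219875) had the widest range among the 6 tested genes. Its level was 2.46, 4.25 and 35.1 CPM in ARST (lowest, median and highest), 1.87, 2.95 and 120.0 CPM in HHDST, and 1.83, 3.56 and 187.7 CPM in HHD. The highest library was number 7 in each group. Library numbers follow accession order and pair no pigs, but ARST 7, HHDST 7 and HHD 7 are all among the 5 pigs with the highest animal numbers in the sample titles. The other two of those 5 were not high, HHDST 8 at 1.87 CPM and HHD 6 at 2.80 CPM. What the animal numbers stand for is not given, and their part in the NOS2 values was not tested. The next highest were 12.1 CPM in ARST, 3.54 CPM in HHDST and 4.56 CPM in HHD.

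The ratio of the highest to the lowest NOS2 level was 102 over the 22 pigs, and the residual SD of its log2 CPM was 1.94, in the upper tail of all tested genes (percentile 99.8; percentile 99.6 among the 500 genes nearest in level). The fitted log2 fold changes were 0.46 (SE 1.57) in ARST against HHDST, -0.64 (SE 1.18) in HHDST against HHD and -0.18 (SE 1.69) in ARST against HHD, with edgeR adjusted p values of 0.9995, 0.9993 and 0.9997. Single libraries set these values. Without HHDST 7 the HHDST against HHD value was -3.31 (edgeR unadjusted p 0.0125, adjusted p 0.9917), and without HHD 7 it was 2.27. Without ARST 7, HHDST 7 and HHD 7 together the values were 0.88 in ARST against HHDST (edgeR unadjusted p 0.0182, adjusted p 0.9050), -0.22 in HHDST against HHD and 0.67 in ARST against HHD.

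The genes whose levels ranked most like NOS2 over the 22 libraries, of 11031 genes searched, were TAPBP (Spearman rho 0.83), which loads peptides onto MHC class I molecules, SEC13 (0.83), a vesicle coat protein, and ASS1 (0.82), argininosuccinate synthase, which rebuilds arginine from citrulline. By Pearson r, a measure added after the values were seen, they were WARS (0.92), a tRNA synthetase known to be inducible by interferon gamma, CASP1 (0.91), the protease that cleaves IL18, and SHISA5 (0.90). These coefficients describe 22 libraries that share 3 high values, and carry no test.

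ASS1 was at 79.0 CPM in ARST 7, 162.1 CPM in HHDST 7 and 344.5 CPM in HHD 7. Its group medians were 72.7 CPM in ARST, 16.9 CPM in HHDST and 14.5 CPM in HHD, so ARST 7 was not high for its group while the other two were the highest of theirs. CASP1 was at 131.4 CPM in ARST 7, 163.5 CPM in HHDST 7 and 179.3 CPM in HHD 7, against medians of 51.1 CPM in ARST, 43.1 CPM in HHDST and 49.6 CPM in HHD. WARS was at 117.0, 117.2 and 217.3 CPM in the same libraries, against medians of 56.4, 55.5 and 62.5 CPM in ARST, HHDST and HHD. The same pigs thus carried the highest CASP1 and WARS of their groups.

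The chemokines CXCL9 and CXCL10, which attract T cells and are classic interferon gamma targets, followed in part. CXCL9 was at 97.0 CPM in ARST 7, 59.7 CPM in HHDST 7 and 80.5 CPM in HHD 7. CXCL10 was at 91.8, 40.4 and 94.45 CPM in those libraries, against medians of 11.44 CPM in ARST, 14.0 CPM in HHDST and 11.02 CPM in HHD. CXCL9 was the highest of its group in ARST 7 and HHD 7 but not in HHDST 7, where HHDST 8 was higher with 61.5 CPM. IL18 itself was at 31.4 CPM in ARST 7, 18.4 CPM in HHDST 7 and 33.4 CPM in HHD 7, the highest of its group in ARST 7 and HHD 7 and below the group median in HHDST 7.

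Cell marker lists also moved in these 3 libraries. The summed T and NK list (13 of 14 genes tested) was the highest of its group in each, at 891 CPM in ARST 7 (group range 333 to 891), 987 CPM in HHDST 7 (309 to 987) and 776 CPM in HHD 7 (500 to 776). The summed fibroblast list was the lowest of its group in ARST 7 (846 CPM) and HHD 7 (653 CPM) and 984 CPM in HHDST 7, in a group range of 634 to 2340 CPM. The duodenal gland list (2 of 4 genes tested) was the highest of its group in HHDST 7 (80.7 CPM) and HHD 7 (102 CPM) and within its group's range in ARST 7 (50.3 CPM). Neutrophil markers (2 of 12 genes tested) were low, at 6.03 CPM in ARST 7, 4.57 CPM in HHDST 7 and 5.54 CPM in HHD 7. The part of these lists in the NOS2 values was not tested.

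**Figure D2:**
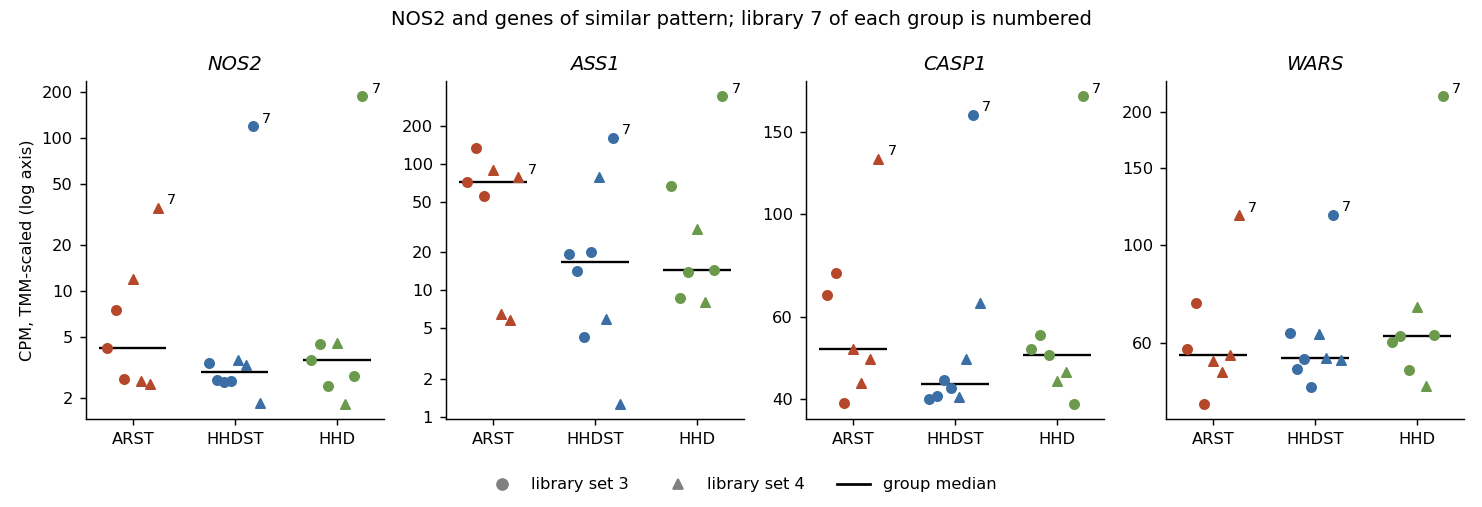
NOS2, ASS1, CASP1 and WARS in each pig, as TMM-scaled CPM on log axes, by group (ARST, HHDST, HHD), with circles for library set 3, triangles for set 4 and a line at the group median. Library 7 of each group, numbered, is the highest of its group for NOS2, CASP1 and WARS, while ASS1 of ARST 7 (79.0 CPM) lies close to its group median.

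Of the 13 listed genes around nitric oxide and arginine, 12 were tested and edgeR called 0. In HHDST against HHD 1 had an unadjusted p under 0.05, beside 1.81% of all genes, and 0 did in the other comparisons. The arginases, which compete with NOS2 for arginine, had the smallest p in HHDST against HHD. ARG1 was at 1.74 ± 0.81 CPM in HHDST and 2.54 ± 0.71 CPM in HHD (log2 fold change -0.55, edgeR unadjusted p 0.0425), and ARG2 at 11.7 ± 5.85 CPM in HHDST and 16.3 ± 2.97 CPM in HHD (log2 fold change -0.48, edgeR unadjusted p 0.0588). In ARST against HHDST, ASL, the lyase that completes arginine synthesis, was at 54.4 ± 7.92 CPM in ARST and 47.2 ± 12.8 CPM in HHDST, and ARG2 at 14.2 ± 2.23 CPM in ARST and 11.7 ± 5.85 CPM in HHDST. The groups' ranges of 1 SD around the mean overlapped for each of these 4 values.

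PIGR (ENSSSCG00000015657; chromosome 9, bases 67553094 to 67574698) was measured with 8522 to 84475 reads per library, so counting error was small beside the differences between pigs. Its level was 784, 1767 and 3100 CPM in ARST (lowest, median and highest), 432, 1538 and 3537 CPM in HHDST, and 1336, 2445 and 3452 CPM in HHD. The 3 libraries under 1000 CPM were ARST 3, HHDST 4 and HHDST 8. PIGR averaged 1963 ± 822 CPM in ARST, 1823 ± 1094 CPM in HHDST and 2346 ± 843 CPM in HHD. The log2 fold change was 0.29 (SE 0.34) in ARST against HHDST, -0.32 (SE 0.33) in HHDST against HHD and -0.03 (SE 0.36) in ARST against HHD, and the 95% interval of HHDST against HHD ran from -1.005 to 0.37.

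The largest PIGR estimate was that between library sets. It averaged 1511 ± 386 CPM in set 4 (n = 9) and 2396 ± 1017 CPM in set 3 (n = 13), a log2 fold change of -0.69 (SE 0.30, edgeR unadjusted p 0.0298, adjusted p 0.9159). None of the 6 defence genes passed the adjusted threshold for library set, beside 0% of all genes, and 1 of 6, PIGR, had an unadjusted p under 0.05, beside 4.42% of all genes. C3, the central complement component, also had a lower estimate in set 4 (log2 fold change -0.74, edgeR unadjusted p 0.00988). In ARST against HHD the PIGR value was -0.23 in set 3 and 0.17 in set 4.

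The ranks of PIGR were close to those of AQP1 (Spearman rho 0.95), a water channel, SLC5A8 (0.92), a sodium-coupled monocarboxylate transporter, and TMEM164 (0.91). By Pearson r the closest were DDAH1 (0.97), an enzyme that degrades an inhibitor of nitric oxide synthases, C3 (0.95) and CFP (0.94), the complement factor properdin. AQP1 was at 103.8 CPM in ARST 3, 104.5 CPM in HHDST 4 and 112 CPM in HHDST 8, the libraries with the lowest PIGR, and at 384 CPM in ARST 1, where PIGR was the highest of ARST. The order was not the same throughout. HHD 7 was also low in AQP1 (107.5 CPM) with PIGR at 1448 CPM, and HHDST 7, highest in PIGR, had AQP1 at 262 CPM.

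Of the 24 listed genes of IgA transport and induction, 21 were tested and edgeR called 0, with 0 at an unadjusted p under 0.05 in any comparison. Between HHDST and HHD 18 of the 21 estimates were below 0, with a median of -0.07 on the log2 scale (all genes 0.01). JCHAIN, which joins IgA into the polymers that PIGR carries, was at 1477 ± 541.9 CPM in HHDST and 1887 ± 493.1 CPM in HHD (log2 fold change -0.33, edgeR unadjusted p 0.104), and RAB3D, a small GTPase of vesicle transport, at 2.79 ± 0.45 CPM in HHDST and 3.50 ± 0.55 CPM in HHD. In ARST against HHDST the smallest p values were those of RAB25, a GTPase of apical recycling (31.9 ± 4.91 CPM in ARST and 28.0 ± 4.38 CPM in HHDST), and TNFSF13, which encodes the plasma cell cytokine APRIL (26.6 ± 2.40 CPM in ARST and 23.5 ± 3.46 CPM in HHDST). The summed plasma cell list spanned 1440 to 2620 CPM in ARST, 1230 to 3320 CPM in HHDST and 1730 to 3400 CPM in HHD.

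CCL20 (ENSSSCG00000016254; chromosome 15, bases 129172743 to 129176069) was at 11.7, 23.95 and 43.9 CPM in ARST (lowest, median and highest), 3.04, 25.5 and 30.5 CPM in HHDST, and 13.2, 17.7 and 55.3 CPM in HHD. In HHD the pigs fell apart, with 46.1, 45.1 and 55.3 CPM in HHD 1, 3 and 6 and 13.2 to 17.7 CPM in the other 4. In HHDST 1 pig, HHDST 3, was at 3.04 CPM and its group median at 25.5 CPM. CCL20 averaged 27.1 ± 12.1 CPM in ARST, 20.5 ± 9.78 CPM in HHDST and 29.5 ± 18.4 CPM in HHD.

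The log2 fold change of CCL20 was 0.39 (SE 0.42) in ARST against HHDST, -0.43 (SE 0.44) in HHDST against HHD and -0.04 (SE 0.45) in ARST against HHD. The direction turned between library sets: HHDST against HHD was -1.16 in set 3 (edgeR unadjusted p 0.0423) and 0.95 in set 4 (edgeR unadjusted p 0.00991, from 3 HHDST and 2 HHD pigs), and ARST against HHDST was 1.15 in set 3 and -0.41 in set 4. The residual SD of its log2 CPM was 0.96 (percentile 98.1 of all genes tested; percentile 98.8 among the 500 nearest in level), beside a median of 0.30 over all genes. The closest genes by rank were ZFP36, which speeds the decay of cytokine mRNAs, ZCCHC14 and ETV3, each with a Spearman rho of 0.64, the lowest best match of the 6 genes.

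CXCL14 (ENSSSCG00000014310; chromosome 2, bases 137803988 to 137813118) was at 151, 209 and 258 CPM in ARST (lowest, median and highest), 90.8, 204 and 267 CPM in HHDST, and 137, 264 and 394 CPM in HHD. It averaged 210.6 ± 41.0 CPM in ARST, 198.4 ± 57.7 CPM in HHDST and 253.5 ± 85.8 CPM in HHD. The log2 fold change was 0.13 (SE 0.21) in ARST against HHDST, -0.35 (SE 0.21, edgeR unadjusted p 0.109) in HHDST against HHD and -0.22 (SE 0.22) in ARST against HHD. Its closest genes by rank were JAML (Spearman rho 0.94), an adhesion protein of leukocytes, PLAU (0.88), the urokinase plasminogen activator, and SLC44A2 (0.85), a choline transporter-like protein. JAML varied less than CXCL14, at 78.3 ± 10.3 CPM in ARST, 80.5 ± 14.7 CPM in HHDST and 88.3 ± 17.5 CPM in HHD.

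Of the 36 listed mucosal chemokines and their receptors, 29 were tested, CCL20 and CXCL14 among them, and edgeR called 0. An unadjusted p under 0.05 was seen for 0 in ARST against HHDST and 1 in HHDST against HHD, beside 2.92% and 1.81% of all genes. In ARST against HHD it was seen for 1, beside 3.41% of all genes (CCR3, 4.88 ± 1.29 CPM in ARST and 3.13 ± 0.97 CPM in HHD). CX3CR1, the fractalkine receptor of resident macrophages, had the smallest p in both comparisons of the rule for named genes. It was at 2.50 ± 1.13 CPM in ARST and 1.60 ± 0.50 CPM in HHDST (log2 fold change 0.65, edgeR unadjusted p 0.0668), and at 1.60 ± 0.50 CPM in HHDST and 2.96 ± 1.77 CPM in HHD (log2 fold change -0.85, edgeR unadjusted p 0.019). These comparisons share the HHDST libraries. CCL5, a chemokine of T and NK cells, was at 93.3 ± 30.8 CPM in ARST and 117 ± 36.3 CPM in HHDST, and CCL28, an epithelial chemokine that attracts IgA plasma cells, at 4.75 ± 1.61 CPM in HHDST and 6.28 ± 2.56 CPM in HHD.

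IL18 (ENSSSCG00000015037; chromosome 9, bases 39839959 to 39861258) was at 13.1, 20.6 and 31.4 CPM in ARST (lowest, median and highest), 16.8, 21.3 and 39.9 CPM in HHDST, and 12.6, 20.1 and 33.4 CPM in HHD. The group means were 22.5 ± 6.53 CPM in ARST, 23.8 ± 7.83 CPM in HHDST and 21.9 ± 8.22 CPM in HHD. The log2 fold change was -0.08 (SE 0.24, 95% interval -0.58 to 0.41) in ARST against HHDST, 0.12 (SE 0.24, 95% interval -0.37 to 0.61) in HHDST against HHD and 0.04 (SE 0.25, 95% interval -0.49 to 0.56) in ARST against HHD. Among its closest genes by rank were GMNN (Spearman rho 0.87), the replication inhibitor geminin, and RAB33B (0.87).

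Of the 21 listed inflammasome and IL18 genes, 11 were tested and 0 were called, none with an unadjusted p under 0.05 in any comparison by edgeR. In ARST against HHDST the smallest p values were those of IL18R1, the IL18 receptor, at 0.638 ± 0.27 CPM in ARST and 0.853 ± 0.23 CPM in HHDST, and NLRP6, an inflammasome sensor of the gut epithelium, at 330 ± 47.7 CPM in ARST and 285 ± 32.6 CPM in HHDST. For HHDST against HHD they were those of IL1A (0.736 ± 0.33 CPM in HHDST and 1.06 ± 0.80 CPM in HHD) and GSDMB (157 ± 45.0 CPM in HHDST and 134 ± 28.6 CPM in HHD), a member of the gasdermin family.

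**Figure D3:**
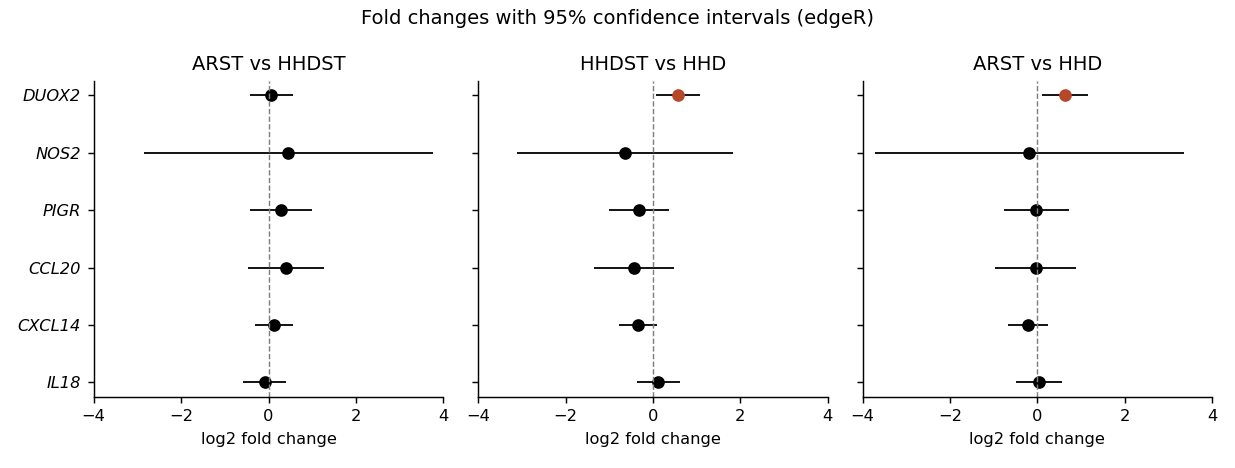
Log2 fold change of the 6 tested defence genes (points) with 95% confidence intervals (lines) from edgeR in ARST against HHDST, HHDST against HHD and ARST against HHD, the dashed line marking no change. Only the DUOX2 intervals against HHD leave 0 (red points, unadjusted p under 0.05), and neither passes after adjustment over 13626 genes.

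IL17 and IL22 signals are known inducers of several of these genes in mucosal epithelium. Of 32 listed genes of the IL17 and IL22 axis 20 were tested and edgeR called 0. IL17A and IL22 themselves had at most 8 and 14 reads, both in HHDST 8. Between HHDST and HHD 2 genes of the list had an unadjusted p under 0.05, beside 1.81% of all genes: OSMR, a receptor subunit for oncostatin M, at 3.37 ± 1.65 CPM in HHDST and 5.20 ± 1.95 CPM in HHD (log2 fold change -0.62, edgeR unadjusted p 0.0323), and the transcription factor STAT3 at 193 ± 37.2 CPM in HHDST and 244 ± 70.4 CPM in HHD (log2 fold change -0.31, edgeR unadjusted p 0.0463). In ARST against HHDST the smallest p values were those of SOCS3, a feedback inhibitor of STAT3 signalling (9.32 ± 3.35 CPM in ARST and 6.65 ± 2.00 CPM in HHDST), and IL17RA, the IL17 receptor (19.3 ± 4.37 CPM in ARST and 16.2 ± 3.56 CPM in HHDST).

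Of 25 listed sensors of microbes 21 were tested and edgeR called 0. The adaptor MYD88 was at 15.8 ± 0.63 CPM in ARST and 13.7 ± 2.10 CPM in HHDST, and at 13.7 ± 2.10 CPM in HHDST and 16.4 ± 3.74 CPM in HHD. TOLLIP, an inhibitor of Toll-like receptor signalling, was at 15.5 ± 2.47 CPM in ARST and 13.5 ± 1.95 CPM in HHDST. The kinase IRAK4 was at 23.2 ± 6.33 CPM in HHDST and 30.4 ± 14.1 CPM in HHD. None of these had an unadjusted p under 0.05 in its comparison by edgeR. In ARST against HHD 1 of the 21 did, beside 3.41% of all genes. This was TOLLIP (15.5 ± 2.47 CPM in ARST and 12.9 ± 1.18 CPM in HHD, edgeR unadjusted p 0.0433).

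Of 40 listed antimicrobial proteins 24 had a row, 15 were tested and 0 were called, none with an unadjusted p under 0.05 in any comparison by edgeR. PGLYRP2, a peptidoglycan-cleaving protein, was at 1.59 ± 0.71 CPM in ARST and 2.94 ± 2.75 CPM in HHDST, and LBP, which binds bacterial lipopolysaccharide, at 17.7 ± 10.1 CPM in ARST and 15.8 ± 10.3 CPM in HHDST. LEAP2, a peptide of enterocytes, was at 88.6 ± 23.8 CPM in HHDST and 119 ± 74.0 CPM in HHD, and PGLYRP3 at 1.01 ± 0.56 CPM in HHDST and 0.752 ± 0.36 CPM in HHD. A row without a symbol (ENSSSCG00000005638), paired with LCN2 by the table of gene names, belongs to this list and not to the genes chosen by name. Its highest and lowest pig differed 1.57-fold, at 8.21 to 12.9 CPM, and averaged 10.51 ± 0.98 CPM in ARST, 10.1 ± 1.64 CPM in HHDST and 9.83 ± 1.26 CPM in HHD.

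Between pigs, each of the 6 defence genes varied more than the median gene. The residual SD of log2 CPM, after group and library set, was 0.48 for DUOX2, 0.78 for PIGR, 1.94 for NOS2, 0.96 for CCL20, 0.44 for CXCL14 and 0.48 for IL18, with a median of 0.30 over all genes tested. Among the 500 genes nearest in level, DUOX2 stood at percentile 72.4, CXCL14 at 86.6, IL18 at 92.0 and PIGR at 96.8. IL18 differed 3.17-fold between the lowest and the highest pig, DUOX2 3.62-fold, CXCL14 4.34-fold, PIGR 8.19-fold and CCL20 18.2-fold.

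Whether these genes varied together was examined over the 22 libraries in 15 pairs, with permutation tests on log2 CPM and Benjamini-Hochberg adjustment over the 15. Since 3 libraries stood apart in NOS2, no coefficient is given for its pairs. Of the 15, 3 passed by Spearman rho, and all 3 ran in opposite directions. The points of a pair share the library, its depth and its scaling.

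CXCL14 and IL18 gave a Pearson r of -0.73 (permutation p = 0.00016, adjusted p = 0.0024) and a Spearman rho of -0.72 (permutation p = 0.00028, adjusted p = 0.0042). The 2 libraries with the lowest IL18, HHD 4 and HHD 2, had the highest CXCL14, and HHDST 8, lowest in CXCL14, was among the highest in IL18. Without the 2 libraries farthest from the median of CXCL14 the values were r = -0.69 (adjusted p = 0.00975) and rho = -0.65 (adjusted p = 0.0384). Within library set 3 rho was -0.72 (n = 13, permutation adjusted p = 0.0541) and within set 4 -0.60 (n = 9, exact permutation adjusted p = 0.726). By r the pair passed in set 3 (r = -0.80, permutation adjusted p = 0.0054) and not in set 4 (r = -0.75, exact permutation adjusted p = 0.248). With values centred within group and library set rho was -0.75 (permutation adjusted p = 0.0015).

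PIGR and IL18 gave r = -0.66 (permutation p = 0.00079, adjusted p = 0.00592) and rho = -0.65 (permutation p = 0.0013, adjusted p = 0.00975). HHDST 4 had the lowest PIGR and the highest IL18 of the 22. Without the 2 libraries farthest from the median of PIGR, HHDST 4 and HHDST 8, the values were r = -0.49 and rho = -0.55 (permutation adjusted p = 0.0687), past the threshold no longer. Leaving them out narrows the range of PIGR and the number of pigs, so this does not show that the relation rested on them. Within set 3 rho was -0.76 (n = 13, permutation adjusted p = 0.0541) and within set 4 -0.15 (n = 9, exact permutation adjusted p = 0.885), so neither set passed alone by rho. By r set 3 passed (r = -0.79, permutation adjusted p = 0.0054) and set 4 did not (r = -0.31, exact permutation adjusted p = 0.659). The difference between the sets was not tested.

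DUOX2 and CXCL14 gave r = -0.47 (permutation p = 0.0265, adjusted p = 0.0794) and rho = -0.57 (permutation p = 0.00588, adjusted p = 0.0294), so this pair passed by rank alone. Without the 2 libraries farthest from the median of DUOX2 the values were r = -0.48 and rho = -0.55 (adjusted p = 0.0687). Within set 3 rho was -0.31 and within set 4 -0.83, where the exact permutation adjusted p was 0.124. Of the remaining pairs without NOS2, PIGR and CXCL14 came closest by r (r = 0.54, permutation adjusted p = 0.0545). DUOX2 and PIGR came next by r (r = -0.495, permutation adjusted p = 0.0724). By rho these pairs stood at 0.477 and -0.487, with the same permutation adjusted p of 0.081. With values centred within group and library set both passed by rho, at 0.59 (permutation adjusted p = 0.0169) and -0.62 (permutation adjusted p = 0.0126). Neither passed by r there (permutation adjusted p = 0.145 for each).

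**Figure D4:**
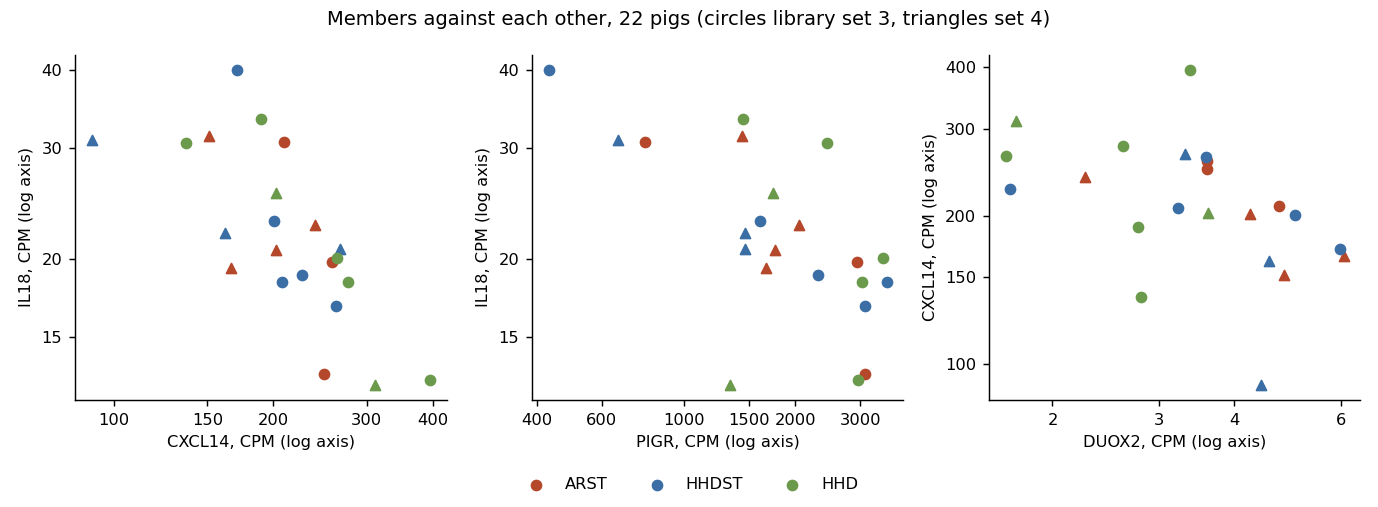
IL18 against CXCL14, IL18 against PIGR and CXCL14 against DUOX2, as TMM-scaled CPM on log axes, 1 point per pig, coloured by group (ARST, HHDST, HHD), with circles for library set 3 and triangles for set 4. IL18 is lower where CXCL14 is higher (Spearman rho -0.72 over all pigs, -0.72 in set 3 and -0.60 in set 4). The relation of IL18 with PIGR has a rho of -0.76 in set 3 and -0.15 in set 4. Neither relation passed by Spearman rho within a set alone after adjustment.

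The same genes were set against summed levels of 14 cell marker lists, a comparison added after the values were seen, in 84 relations with Benjamini-Hochberg adjustment over the 84. Leaving NOS2 aside, 15 passed by Spearman rho. Unless r is named, adjusted p values here are those of rho. IL18 ran opposite to the stromal lists, with rho = -0.79 for endothelial (r = -0.84, permutation adjusted p = 0.0021), -0.78 for fibroblast and -0.75 for smooth muscle genes. CXCL14 ran with them, at 0.74 for smooth muscle (r = 0.71, permutation adjusted p = 0.0028), 0.72 for endothelial and 0.71 for fibroblast genes. PIGR did so too, at 0.72 for endothelial (r = 0.83, permutation adjusted p = 0.00372), 0.65 for fibroblast and 0.61 for smooth muscle genes.

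DUOX2 ran opposite to the goblet list (rho = -0.57, r = -0.58, permutation adjusted p = 0.0374) and the duodenal gland list (rho = -0.61, r = -0.53, permutation adjusted p = 0.0223). The goblet list passed with IL18 (rho = -0.60) and CXCL14 (rho = 0.57) as well. CXCL14 also passed with the macrophage and dendritic list (rho = 0.61) and the neutrophil list (rho = 0.56). Only 2 of the 12 listed neutrophil genes passed the filter, and the summed list spanned 4.57 to 47.6 CPM. FCGR3A is on both of these lists, so the relations are not separate, and that with the neutrophil list rests on low levels. CCL20 passed with no list by rho. By Pearson r it passed with the mast and eosinophil list (r = 0.61, permutation adjusted p of r = 0.0165, rho = 0.28), where r was 0.22 without HHDST 3 and HHDST 7. By r alone PIGR also passed with the goblet (r = 0.61), Paneth (r = 0.56) and macrophage and dendritic (r = 0.53) lists. The permutation adjusted p of r was 0.0146, 0.0275 and 0.0418. Only 1 of the 6 listed Paneth genes was tested. IL18 passed by r alone with the macrophage and dendritic (r = -0.58) and neutrophil (r = -0.60) lists, with permutation adjusted p of r of 0.0217 and 0.0187. The enterocyte list had rho between -0.26 and 0.22 with these 5 genes and r between -0.26 and 0.50, and passed with none by either measure. The fibroblast, smooth muscle and endothelial lists ranked the pigs much alike. HHD 2 was at rank 2 of 22 in each, and HHDST 8 at 22, 22 and 21. The relations with these lists are therefore not separate, and no coefficient between lists was computed. All 15 relations that passed by rho kept their sign within each library set. In set 3 (n = 13) 7 of the 15 passed and in set 4 (n = 9) 0 passed by exact permutation, where 5 had an unadjusted p under 0.05. Without the 2 libraries farthest from the median 7 passed, and with values centred within group and library set 15 passed.

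The summed lists overlapped between groups. The endothelial list spanned 195 to 557 CPM in ARST, 126 to 676 CPM in HHDST and 238 to 664 CPM in HHD, the fibroblast list 846 to 3090 CPM in ARST, 634 to 2340 CPM in HHDST and 653 to 3080 CPM in HHD, and the goblet list 1360 to 4070 CPM in ARST, 1350 to 3840 CPM in HHDST and 1650 to 4180 CPM in HHD. In HHDST against HHD the goblet list had 0 of 7 estimates above 0 (median -0.38 on the log2 scale, 1 gene at an unadjusted p under 0.05 by edgeR, beside 1.81% of all genes). The fibroblast list had 0 of 9, the smooth muscle list 0 of 8 and the duodenal gland list 0 of 2. Others were mixed, with 11 of 13 above 0 for T and NK, 7 of 14 for enterocyte, 5 of 9 for B cell and 3 of 5 for mast and eosinophil genes. Lower counts were 2 of 13 for macrophage and dendritic, 1 of 9 for plasma cell, 1 of 8 for endothelial and 1 of 6 for M cell genes. The share of all genes above 0 was not counted. In ARST against HHD the goblet list had 3 of 7 above 0 (median -0.02) and the fibroblast list 4 of 9. The smooth muscle list had 0 of 8 and the duodenal gland list 1 of 2. The median summed goblet level was 2880 CPM in ARST, 2460 CPM in HHDST and 3740 CPM in HHD. That of the duodenal gland list was 46.1 CPM in ARST, 38.3 CPM in HHDST and 53.7 CPM in HHD. The part of these lists in the DUOX2 values was not tested.

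**Figure D5:**
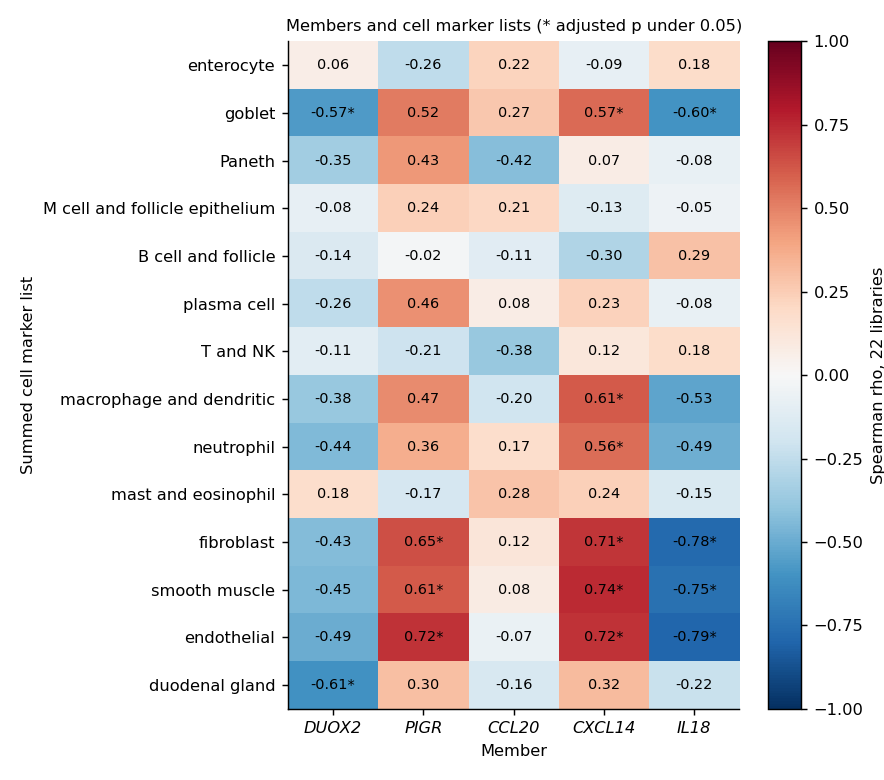
Spearman rho over 22 libraries between each of 5 defence genes (columns) and the summed level of each of 14 cell marker lists (rows), on a colour scale from -1 to 1, with an asterisk where the adjusted p is under 0.05. IL18 is opposite to the fibroblast, smooth muscle and endothelial lists that CXCL14 and PIGR run with, and the enterocyte row lies between -0.26 and 0.22.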

How the data were processed

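Per the labels' protocols, mucosal RNA of high integrity went into TruSeq version 2 libraries, a kit that does not mark strand, was sequenced as single reads and analysed in CLC Genomics Workbench with Sscrofa11.1 as the reference. For the version and the mapping settings, the sources used here give nothing. Per the file headers, the deposited unit is the count of unique exon reads of each gene, so reads with several equally good places are left out and near-identical genes are uncertain.

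Symbols came from the files (17332 genes) or a table of gene names (1073), and 5953 genes stayed unnamed. Gene spans came from RefSeq for Sscrofa11.1. The members and gene lists were chosen with earlier results of these data known. Groups follow each sample's diet label, and libraries are numbered in accession order. No 2 libraries agreed within sampling noise (smallest reduced chi-square over the 231 pairs, 25.2).

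In R 4.3.3, edgeR 4.0.16 filtered genes (filterByExpr, minimum count 10), scaled by TMM and fitted a robust quasi-likelihood model to the 3 groups with library set as a term (18 residual degrees of freedom, biological coefficient of variation 25.9%). P values were adjusted by Benjamini-Hochberg over 13626 genes. Each pig is 1 replicate of its group. Library totals of 15.3 to 31.6 M reads set the counting precision, which limits genes near 1 CPM. Correlations used log2 CPM (prior count 2) and 100000 two-sided permutations, or all orders where n was under 10. The scripts were tested on simulated data. Alternatives were DESeq2 1.42.0, limma 3.58.1 with quality weights, other filters and scalings, each library set alone and leaving out libraries. Named genes were the members, the 2 other genes with the smallest p of each pathway list in ARST against HHDST and in HHDST against HHD, and the 3 genes ranked most like each tested member, among genes with a symbol whose log2 CPM averaged 1 or more. CASP1, WARS, CXCL9 and CXCL10 by library, DUOX1 and DUOXA1 as neighbours, C3 by library set, CCR3 and ABCG1 were named after their values were seen. Some genes that this rule names are not reported here.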

Additional observations from a re-analysis of the deposited data

Results flagged for a closer look

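In all, 10 values stood apart from their group by Dixon's test at the 95% level, among 30 groups of values checked (10 genes in 3 groups each). The test was run on CPM without logs, where high values stand apart more readily, so no chance rate is set beside this count. NOS2 was far above the other libraries in ARST 7 (35.07 CPM, next 12.1), HHDST 7 (120.0 CPM, next 3.54) and HHD 7 (187.7 CPM, next 4.56). CASP1 stood apart in the same libraries, at 131.4 CPM in ARST 7, 163.5 CPM in HHDST 7 and 179.3 CPM in HHD 7. WARS did so as well, at 117.0 CPM in ARST 7, 117.2 CPM in HHDST 7 and 217.3 CPM in HHD 7. ASS1 stood apart in HHD 7 alone, at 344.5 CPM. ASS1, CASP1 and WARS were looked at because their pattern was close to that of NOS2. Their flags therefore follow in part from that choice, and these values are not independent of each other.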

How the results depend on the processing

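No paired analysis was possible because the replicate numbers follow accession order and the labels give every pig a number of its own. Under 35 alternatives per diet or drug comparison the number of defence genes called was 0 throughout. DUOX2 kept its direction in all 35 in both comparisons with HHD, from 0.36 (limma) to 0.68 (without HHDST 2) in HHDST against HHD, and from 0.45 (limma) to 0.75 (without HHD 5) in ARST against HHD. Its lowest adjusted p was 0.6629 and 0.6424 there, both by limma, and its unadjusted p reached 0.21 and 0.136 by limma. In HHDST against HHD the unadjusted p was 0.0614 without HHD 1, 0.0666 without HHD 4, 0.06 without HHDST 1 and 0.075 without HHDST 4, and in ARST against HHD 0.0624 without HHD 4.

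Genes called over the whole table in ARST against HHDST were 4 by DESeq2, 1 by limma, 2 without the library set term, 2 without the 5 late-numbered animals (those with the highest animal numbers in the sample titles, ARST 7, HHDST 7 and HHD 7 among them), 1 without ARST 7, HHDST 7 and HHD 7 (an alternative chosen after seeing the data), and 0 to 2 leaving out 1 library. In HHDST against HHD DESeq2 called 1. In ARST against HHD DESeq2 called 2, and 0 were called in library set 3 or 4 alone, with total counts or without those 3 libraries. Leaving out 1 library gave 0 to 1, with 1 without ARST 3, ARST 7, HHDST 4, HHDST 7 or HHDST 8 and 0 otherwise.

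Some estimates turned round. In ARST against HHDST, DUOX2 was -0.0078 without ARST 7, HHDST 7 and HHD 7 (-0.0403 to 0.17 leaving out 1 library), IL18 ran from -0.19 to 0.0515 leaving out 1 library, CCL20 was -0.41 in set 4, and NOS2 was -2.43 in set 3, -0.89 without the set term and -0.25 with only the groups compared (-0.55 to 1.79 leaving out 1 library). In HHDST against HHD, CCL20 was 0.95 in set 4, IL18 ran from -0.0506 to 0.25 and NOS2 from -3.31 to 2.27 leaving out 1 library. In ARST against HHD, CCL20 was 0.55 in set 4, 0.21 with only the groups compared and 0.11 without the 5 late-numbered animals (-0.20 to 0.17 leaving out 1 library). There IL18 was -0.12 in set 3 and -0.0173 with total counts (-0.11 to 0.17), PIGR was 0.17 in set 4 (-0.12 to 0.19), and NOS2 was 2.03 in set 4, 0.34 by limma, 0.62 without the 5 late-numbered animals and 0.67 without ARST 7, HHDST 7 and HHD 7 (-1.51 to 1.78). The cause of these changes was not tested.

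Pairs of defence genes that passed by Spearman rho numbered 5 with values centred within group and library set, 0 in library set 3 and 0 in set 4, where fewer libraries enter, and 1 without the 2 libraries farthest from the median. Genes near 1 CPM, and DUOXA2, are limited by depth.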
